A study of Caenorhabditis elegans with 12 samples.

Results

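The cytosolic ribosomal protein genes of Caenorhabditis elegans were taken as every gene whose name starts with rpl, rps or rla, followed by a hyphen and a number. The rule found 81 of 32238 annotated genes. By name, 50 belong to the large subunit, the rla genes of the acidic stalk included, and 31 to the small subunit. The rule reads gene names alone, so the 50 include rpl-24.2, which RefSeq names rsl-24D1 after a factor of ribosome assembly. A further 3 genes that encode ribosomal proteins under other names, ubl-1, ubq-2 and rack-1, lie outside the rule and are described apart.

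The study asked how small interfering RNAs that need the double-stranded RNA-binding protein RDE-4 act together with insulin/IGF-1 signaling in aging. Small RNAs were sequenced from 4 strains of whole hermaphrodites, grown at 20 °C to the first day of adulthood, with 3 independent worm populations each. The strains were N2 wild type (WT), the null mutant rde-4(ne301), the long-lived mutant age-1(hx546), in which insulin/IGF-1 signaling is moderately reduced, and the double mutant age-1(hx546); rde-4(ne301). Libraries were enriched for small RNAs with a 5′ monophosphate, the end that Dicer leaves, and had inserts of 18 to 40 bp. Each value is the number of reads that mapped to the strand opposite a gene, so it measures antisense small RNAs and not the mRNA or the protein. In whole worms, fewer cells of a type and less small RNA per cell cannot be told apart.

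The ribosome translates mRNA into protein. Its small subunit decodes the mRNA, and its large subunit forms the peptide bonds and releases the new chain through an exit tunnel. Ribosomal protein mRNAs are among the most abundant in growing tissues such as the worm germline. Dicer, helped by RDE-4, cuts double-stranded RNA into primary siRNAs that are loaded onto Argonautes such as ERGO-1 in oocytes and embryos and ALG-3/4 in the spermatogenic germline.

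The libraries held between 2449703 and 3590005 antisense counts. Genes that lie opposite a miRNA gene took 59.8% to 81.7% of them. Scaling factors from the trimmed mean of M values (TMM) were 0.432 to 0.596 in the double mutant and 0.948 to 1.73 in the other strains. CPM below are counts per 1000000 on this scale over all 12 libraries. The mutated genes themselves could not check the labels, since antisense reads do not report a null allele. Known ERGO-1 siRNA loci, which need RDE-4, summed to 631 ± 250 CPM (SD, n = 3) in WT and to 9.99 ± 3.21 CPM in rde-4. The same loci summed to 456 ± 42 CPM in age-1 worms and to 8.14 ± 3.04 CPM in double mutants. Genes of the spermatogenic germline, a list of 10, summed to 233 ± 15.7 CPM (WT), 47.4 ± 11.5 (rde-4), 524 ± 157 (age-1) and 76.5 ± 53.9 (double mutant). A list of 8 oocyte genes summed to means of 43.7 CPM (WT), 39.8 (rde-4), 34.1 (age-1) and 44.1 (double mutant). The paper states that RDE-4 is needed for small RNAs bound by ALG-3/4, which act in the spermatogenic germline. Between strains with and without RDE-4, the spermatogenic sums therefore cannot separate loss of these small RNAs from a change in germline makeup. The part of germline makeup in the results below was not tested.

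The 81 genes were covered thinly and nearly completely. A single gene had between 0 and 297 counts per library. The median gene had 12 counts in WT and in rde-4, 15 in age-1 but only 5.67 in the double mutant, as means over libraries. At least 1 count was found for 76 to 80 of the 81 genes in every library, and 16 genes had 0 counts in at least 1 library. In WT, 29 genes had 10 or more counts in replicate 1, against 62 in the highest library, a replicate of age-1. Small differences between single genes were therefore not detectable at this depth.

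Per kilobase of counted length, ribosomal protein genes stood well above the typical coding gene. Their median level was 5.03 CPM per kb in WT, while that of 15309 other protein-coding genes with no gene on the opposite strand was 0.236 CPM per kb. The median of the ribosomal protein genes lay at the 91.8 percentile of those genes for WT, 95 for rde-4, 91.1 for age-1 and 93.6 for the double mutant. Small subunit genes had a median level of 5.73 CPM per kb in WT and large subunit genes one of 4.58. Other genes of translation were lower, with WT medians of 2.03 CPM per kb for 41 translation factors, 2.09 for 24 ribosome biogenesis genes, 1.51 for 71 mitochondrial ribosomal protein genes and 0.928 for 32 aminoacyl-tRNA synthetase genes. These levels describe antisense reads per length, and the mRNA levels of the same genes were not used here.

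**Figure D1:**
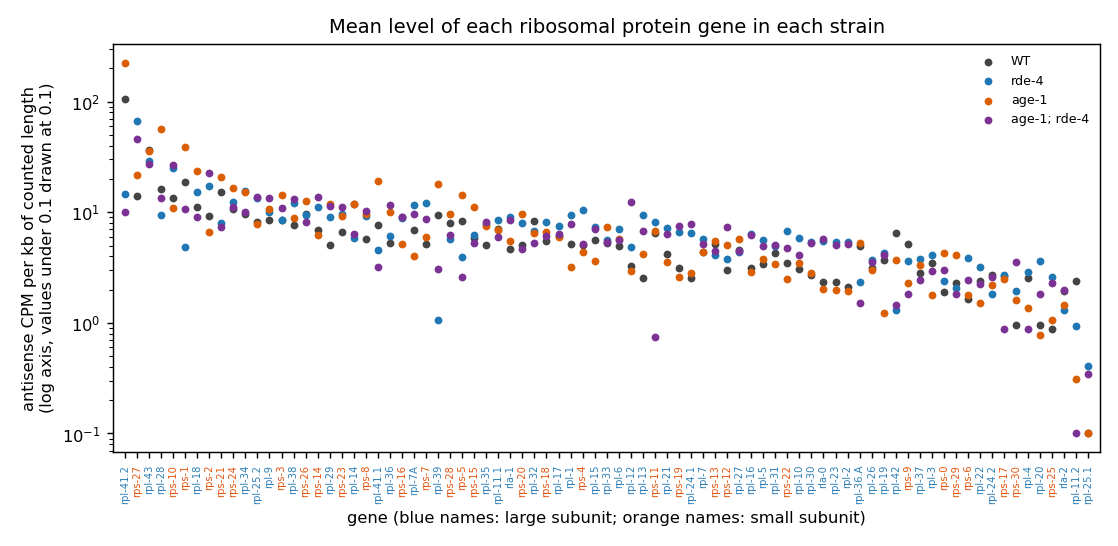
Mean antisense level of each of the 81 genes in each strain, in CPM per kb of counted length on a log axis, ordered by the mean over all 12 libraries. Most genes lie within one order of magnitude in all 4 strains, while rpl-41.2 is at 106 CPM per kb in WT and 226 in age-1, and rpl-25.1 is near 0 throughout.

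Levels spread widely among the members. The 4 large subunit genes with the highest mean level over the 12 libraries were rpl-41.2 at 89.1 CPM per kb, rpl-43 at 32.4, rpl-28 at 23.8 and rpl-18 at 14.8. In the small subunit the 4 highest were rps-27 at 37.2 CPM per kb, rps-10 at 19.0, rps-1 at 18.2 and rps-2 at 13.9. The order differed between strains, since rpl-41.2 was at 14.6 CPM per kb in rde-4 and 9.95 in double mutants, where rpl-43, at 29.2 and 27.4, was the highest of the large subunit. In WT and age-1 the highest small subunit gene was rps-1, at 18.6 and 38.7 CPM per kb, and in both strains with the rde-4 mutation it was rps-27, at 67.4 and 45.7. RPL-41 is one of the shortest proteins known in eukaryotes and sits at the interface of the subunits, and RPS-27 is a zinc-finger protein of the small subunit. At the low end were rpl-25.1 at 0.188 CPM per kb and rpl-11.2 at 0.908, both on chromosome X, and rps-25 at 1.70 and rps-30 at 2.00. Only those 2 of the 81 genes lie on chromosome X, and 25 lie on chromosome I, 10 on II, 18 on III, 18 on IV and 8 on V.

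Some numbered copies of a gene differed in level. The gene rpl-25.1 had 3 counts in all 12 libraries together, 2 in rde-4 and 1 in the double mutant, while rpl-25.2 stood at 4.45 ± 0.363 CPM in WT. For rpl-11.2 the counts were 9, 4 and 4 in the WT libraries, 0, 3 and 3 in rde-4, 0, 2 and 1 in age-1 and 0 in every double mutant library, and it passed the filter on low counts in no comparison. Its copy rpl-11.1 was at 5.48 ± 0.755 CPM in WT and 4.62 ± 1.34 in the double mutant. RPL-11 is a protein of the central protuberance of the large subunit. The genes rpl-24.1 and rpl-24.2 share a number, although RefSeq names the latter rsl-24D1. Their levels in WT were alike, at 1.60 ± 1.40 and 1.60 ± 0.751 CPM. Of the 81 genes, 20 carry another symbol in the RefSeq annotation, such as rps-3A for rps-1 and rplp-0 for rla-0.

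Opposite their annotated exons, these genes mostly have no other gene. In the Ensembl annotation of WBcel235, 71 of the 81 genes had no exon of another gene opposite their exons. Another 9 shared between 3 and 50 bp with an exon of a protein-coding gene, and rpl-7A shared 67 bp with a non-coding RNA gene. No annotated exon of the 81 genes lay opposite a miRNA, tRNA, snRNA, snoRNA or rRNA gene. For 9 genes the counted length was more than 1.3 times the annotated exons, for example 4353 against 265 bp for rps-29, so their counts cover sequence that this annotation does not show as exon. The others were rla-1, rla-2, rpl-16, rpl-27, rps-0, rps-14, rps-16 and rps-25. What lies opposite that further sequence was not checked.

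As a group, ribosomal protein genes took a small share of all antisense counts, and that share was lowest in the double mutant. It was 0.0290%, 0.0602% and 0.0584% in the WT libraries. It was 0.0426%, 0.0480% and 0.0459% in rde-4, and 0.0648%, 0.0476% and 0.0742% in age-1. In the double mutant it was 0.0189%, 0.0239% and 0.0196%, below every other library. The group mean was 0.0492% ± 0.0175 (WT), 0.0455% ± 0.0027 (rde-4), 0.0622% ± 0.0135 (age-1) and 0.0208% ± 0.00268 (double mutant), with n = 3 each. WT replicate 1 stood apart, with 803 counts on these genes against 1643 and 1540 in the other WT libraries, and without it the mean share of rde-4 was 0.768 times that of WT, where it was 0.925 times with all 3.

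The order of the strains depended on what the counts were divided by. On the TMM scale the 81 genes summed to 353 ± 51.9 CPM (WT), 420 ± 26.9 (rde-4), 464 ± 67.7 (age-1) and 398 ± 40.6 (double mutant), and the double mutant fell within the range of the others. Divided by the counts of genes with no opposite-strand gene, the counts of the 81 genes came to 0.585% (WT), 0.957% (rde-4), 0.571% (age-1) and 0.706% (double mutant). This is a ratio and not a share, since 10 of the 81 genes have an opposite exon and lie outside the denominator. That denominator itself was 8.2% (WT), 4.76% (rde-4), 10.8% (age-1) and 2.95% (double mutant) of all counts. The drop in share of all counts in the double mutant went with a drop over genes with no opposite-strand gene as a whole. In rde-4 that class was also below WT, at 4.76% against 8.2%, while the mean share of the 81 genes was 0.0455% against 0.0492%.

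**Figure D2:**
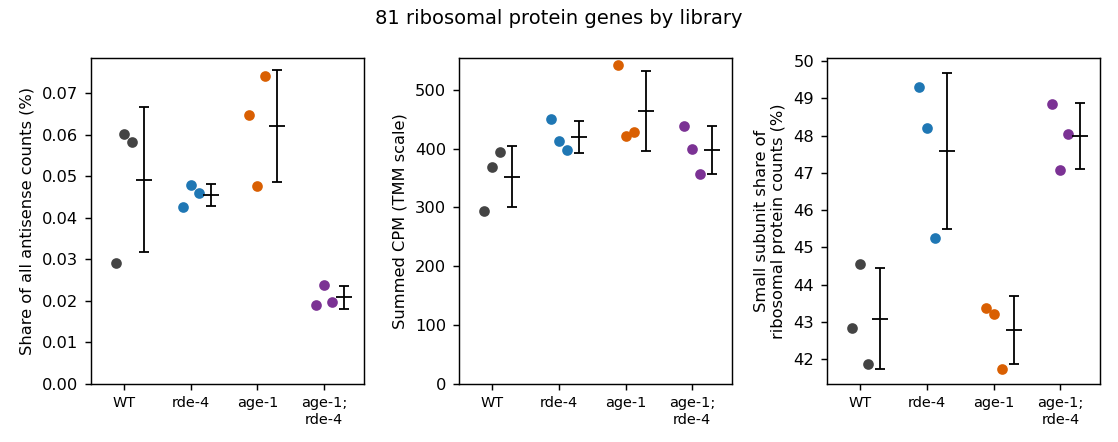
Share of all antisense counts (left, percent), summed CPM on the TMM scale (middle) and small subunit share of the ribosomal protein counts (right, percent, axis not starting at 0) in each of the 12 libraries, with group mean and SD beside the points. The left panel is lowest in the double mutant at 0.0208% and the middle panel is not, and in the right panel all libraries with the rde-4 mutation lie above all libraries without it, a gap that was not there without rpl-41.2, rps-1 and rps-27.

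The share of counts held by small subunit genes was higher in strains with the rde-4 mutation, and the gap closed without 3 genes. Small subunit genes held 42.8%, 44.6% and 41.9% of the ribosomal protein counts in the WT libraries and 43.4%, 43.2% and 41.7% in age-1. They held 49.3%, 48.2% and 45.2% in rde-4 and 48.8%, 48.0% and 47.1% in the double mutant. The libraries with and without the rde-4 mutation did not overlap in this share, which needs no scaling between libraries. Without the 2 genes rpl-41.2 and rps-1 the ranges overlapped in both backgrounds, at 43.2% to 46.7% in WT beside 45.2% to 49.4% in rde-4, and at 43.2% to 47.0% in age-1 beside 46.0% to 47.8% in double mutants. With rps-27 also left out, the means were 43.5% ± 1.77 (WT), 43.8% ± 1.44 (rde-4), 44.3% ± 1.90 (age-1) and 44.4% ± 1.09 (double mutant), which differed by less than the spread between libraries. Of the 3, rps-1 is a small subunit gene whose own share fell with RDE-4 loss, so it worked against the gap. That share was 4.73% (WT), 1.01% (rde-4), 7.24% (age-1) and 2.30% (double mutant). These genes were left out after their values were seen.

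The comparison of rde-4 with WT asks which antisense small RNAs depend on RDE-4 in an otherwise wild-type worm. Here 3 ribosomal protein genes fell and 3 rose of the 54 that passed the filter on low counts. A gene was called where edgeR's quasi-likelihood test, adjusted over all tested genes by Benjamini-Hochberg, gave a value under 0.05. Over all 4797 genes tested, 26.7% were called, 10.8% higher and 16% lower, where 6 of these 54 were. Most members were not called. Their log2 fold changes were positive in 39 and negative in 15, where 2573 of all genes were positive and 2224 negative. The median was 0.39 beside 0.06 over all genes. By subunit, the median was 0.37 for 31 large subunit genes, of which 1 rose and 2 fell, and 0.48 for 23 small subunit genes, of which 2 rose and 1 fell.

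The gene with the largest decrease was rpl-41.2, on chromosome I from 4790292 to 4790642 (WBcel235, plus strand, 2 exons, no gene opposite). Its level was 29.7, 34.5 and 33.3 CPM in WT and 5.20, 3.87 and 4.34 CPM in rde-4. The lowest WT library was thus far above the highest rde-4 library. The log2 fold change was -2.87 ± 0.37 (SE), with an adjusted p of 4.8e-05 by edgeR's quasi-likelihood test. The copy rpl-41.1 lies upstream on the same strand, 699 bp away, and both have a coding sequence of 66 bp, so it is uncertain to which copy some reads belong. Their summed counts gave a log2 fold change of -2.51 ± 0.38 with an edgeR adjusted p of 1.6e-04.

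The small subunit gene rps-1, which encodes a large protein near the mRNA exit channel, lies on chromosome III from 4475918 to 4476876. It stood at 17.6, 15.5 and 15.9 CPM in WT and at 4.46, 4.22 and 4.01 CPM in rde-4. The groups were each tight and far apart. It fell by 1.95 on the log2 scale (SE 0.35, edgeR adjusted p = 5.3e-04). For rpl-42, on chromosome II, the counts were 12, 18 and 22 in WT and 4, 1 and 3 in rde-4, for a log2 fold change of -2.29 ± 0.57 (edgeR adjusted p = 0.0061). The rde-4 counts of rpl-42 were few, and none reached the lowest of WT. Low counts also bore on rpl-39, a protein of the exit tunnel wall, which had 24 counts in WT and 2 in rde-4 and did not pass the filter in this comparison.

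Of the genes that rose, rps-27, on chromosome V from 103394 to 104077 (minus strand), changed most. Its CPM were 4.77, 6.72 and 6.16 in WT and 45.0, 20.8 and 18.4 in rde-4. Replicate 1 of rde-4 was higher than the others, and all 3 lay above WT. The log2 fold change was 2.21 ± 0.42 (edgeR adjusted p = 8.0e-04), and it was 1.70 without that library. The large subunit gene rpl-13 had 1.47, 2.02 and 2.31 CPM in WT and 10.8, 6.34 and 4.68 CPM in rde-4, for a log2 fold change of 1.84 ± 0.46 (edgeR adjusted p = 0.0057). Without rde-4 replicate 1 it was 1.45 and missed the threshold (adjusted p = 0.052), as it did with DESeq2 (adjusted p = 0.060). For rps-7 the CPM were 4.41, 3.36 and 3.08 in WT and 12.3, 9.15 and 4.34 in rde-4, which overlap. Its log2 fold change of 1.24 ± 0.42 (edgeR adjusted p = 0.039) lost its call without any one library except rde-4 replicate 3, with values down to 0.89 without rde-4 replicate 1. It also lost it with library totals (0.92), scaling by counts opposite miRNA genes (1.13), no filter (1.13) and DESeq2 (1.14).

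The count of calls in this comparison was sensitive. With the replicate number as a block it was 11, with 7 higher and 4 lower, and the genes added were rpl-16, rpl-2, rps-2 and rps-4, all higher, and rps-5, lower. Of all 4797 genes, 31.7% were called with the block. Without rde-4 replicate 3 the count was 10, where 23.7% of all genes were called. DESeq2 called 4, of which rps-27 was higher and rpl-41.2, rpl-42 and rps-1 were lower. Over all genes DESeq2 called 13.1%. The stalk proteins recruit translation factors to the large subunit, and of their genes rla-0 had a log2 fold change of 1.19 ± 0.54 (edgeR adjusted p = 0.13) and rla-1 one of 0.92 ± 0.39 (edgeR adjusted p = 0.10), while rla-2 had 23 counts in WT and 12 in rde-4.

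The same question in long-lived worms is asked by the comparison of the double mutant with age-1. Of 45 ribosomal protein genes tested, 7 rose and 10 fell, which is 37.8%, where 49.1% of all 4003 genes were called, 19.1% higher and 30% lower. In the large subunit 3 of 25 genes rose and 5 fell, and in the small subunit 4 of 20 rose and 5 fell. The median log2 fold change was -0.10, beside 0.02 over all genes, and was 0.15 in the large and -0.41 in the small subunit. The 10 decreases kept their calls with library totals and with scaling by counts opposite miRNA genes, and the 7 increases did not. Both scalings moved the median over all genes down, to -1.32 and -1.15, so they could not test the decreases. In a fit of only genes with no opposite gene, 4 genes of each subunit rose, and 2 large and 3 small subunit genes fell. That fit leaves out rpl-28 and rpl-39, and rpl-18, rps-21 and rps-29 were not called in it. DESeq2 did not call rps-21 (adjusted p = 0.056).

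Again rpl-41.2 changed most. It had 87.0, 66.6 and 53.4 CPM in age-1 against 5.06, 2.86 and 1.22 CPM in the double mutant. The ranges were more than one order of magnitude apart. The log2 fold change was -4.50 ± 0.49 (edgeR adjusted p = 2.0e-06), and that of the summed copies was -4.14 ± 0.47 (edgeR adjusted p = 2.9e-06). By itself rpl-41.1, with 37, 36 and 15 counts in age-1 against 2, 3 and 1 in the double mutant, had a log2 fold change of -2.47 ± 0.65 (edgeR adjusted p = 0.0047).

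The other genes that fell came from both subunits. For rps-1 the CPM were 43.1, 29.1 and 29.4 in age-1 against 13.7, 10.3 and 4.26 in the double mutant, a log2 fold change of -1.84 ± 0.43 (edgeR adjusted p = 0.0016). The level in the double mutant, 9.43 ± 4.80 CPM, was above the 4.23 ± 0.224 CPM of rde-4, and this difference did not pass the test. For rpl-28, a large subunit gene on chromosome V from 12727593 to 12728112 that shares 20 bp with an exon of R11D1.13, the CPM were 29.3, 16.8 and 26.6 in age-1 against 4.34, 8.02 and 4.86 in the double mutant. The change was -2.07 ± 0.44 on the log2 scale (edgeR adjusted p = 8.5e-04). The gene rps-5, for a protein of the small subunit head, had 14.1, 12.8 and 5.25 CPM in age-1 against 2.89, 1.72 and 1.22 CPM in the double mutant. It fell by 2.42 on the log2 scale (SE 0.56, edgeR adjusted p = 0.0018).

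**Figure D3:**
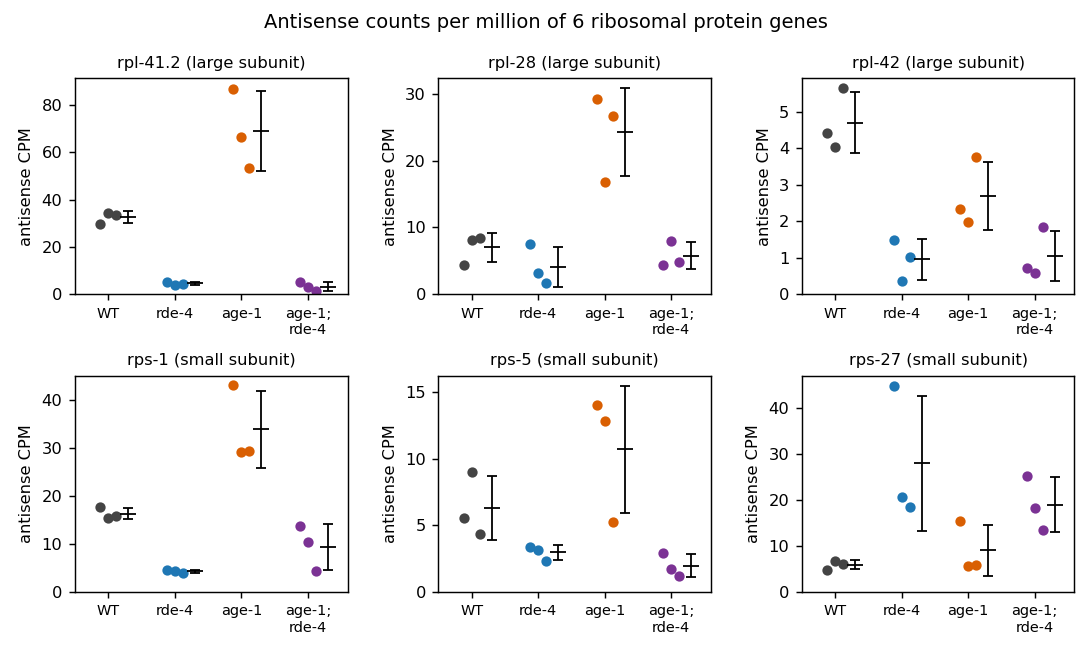
Antisense CPM (TMM scale over 12 libraries) of 6 ribosomal protein genes in each library, with the group mean and SD beside the points. In rpl-41.2 and rps-1 both strains with the rde-4 mutation lie below WT and age-1, in rps-27 they lie above WT, and in rpl-28 the 3 age-1 libraries, at 16.8 to 29.3 CPM, lie above all others.

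A pair of genes rested on very few reads. For rps-11 there were 46 counts in age-1 against 2 in the double mutant, a ratio of 8.58 on the TMM scale with a 95% exact counting interval of 2.24 to 73.0. For rpl-39 there were 53 counts in age-1 against 3 in the double mutant, a ratio of 6.59 with an interval of 2.14 to 33.0. These intervals cover counting error only. Both calls (edgeR adjusted p = 0.0062 and 0.0077) were lost without replicate 2 of the double mutant, at adjusted p = 0.054 and 0.069.

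The remaining decreases were smaller. They were -1.51 ± 0.53 for rps-21, -1.41 ± 0.47 for rpl-18 and -1.15 ± 0.42 for rps-29 on the log2 scale, with edgeR adjusted p of 0.026, 0.019 and 0.030. Without replicate 3 of the double mutant these became -1.22, -1.34 and -1.26, and without its replicate 2 they became -1.67, -1.11 and -0.96, and none of the 3 passed the threshold in either case. The calls of rps-21 and rps-29 were also lost without age-1 replicate 1, at -1.41 and -1.05, and that of rps-29 without age-1 replicate 2, at -1.16. The counts of rps-29 cover 4353 bp, of which its exons are 265 bp.

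Among the 7 genes that rose on the TMM scale, rpl-12, for a protein at the base of the stalk, was first. It had 2.34, 1.48 and 3.56 CPM in age-1 against 9.39, 14.3 and 7.29 CPM in the double mutant, a log2 fold change of 1.98 ± 0.52 (edgeR adjusted p = 0.0040). The groups did not overlap. All double mutant libraries lay above all age-1 libraries in 6 of the 45 ribosomal protein genes and in 24.1% of all 4003 genes. For rps-2, a protein near the mRNA entry channel, the CPM were 6.15, 5.43 and 8.06 in age-1 against 5.78, 29.8 and 32.2 in the double mutant. Here replicate 1 of the double mutant stayed at the age-1 level, and the log2 fold change of 1.74 ± 0.51 (edgeR adjusted p = 0.0086) became 1.36 without replicate 3 of the double mutant (adjusted p = 0.062). The stalk gene rla-0 had 3.51, 1.48 and 1.5 CPM in age-1 against 6.50, 5.73 and 6.08 CPM in the double mutant, a log2 fold change of 1.52 ± 0.50 (edgeR adjusted p = 0.018). It lost its call without age-1 replicate 2, at 1.26, and without double mutant replicates 1, 2 or 3, at 1.32, 1.51 and 1.47.

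The other 4 that rose were rps-10, rps-27, rps-14 and rpl-16, at log2 fold changes of 1.19, 1.12, 1.10 and 1.07. Without double mutant replicate 1 these were 0.85, 0.70, 0.83 and 0.77, and none passed. The calls of rps-14 and rpl-16 were also lost without age-1 replicates 1 or 2 or double mutant replicates 2 or 3, that of rps-10 without age-1 replicates 1 or 2 or double mutant replicate 3, and that of rps-27 without age-1 replicates 2 or 3 or double mutant replicate 2. The count of genes called, 17 with all libraries, was 11 without age-1 replicate 2, 8 without double mutant replicate 2 and 9 without double mutant replicate 3. Over all genes the share called was 49.1% with all libraries and 34.7%, 35.2% and 34.3% in those fits. The names rps-14 and rpl-16 were added after their values were seen. Both were counted over more than their exons, 1171 against 507 bp for rps-14 and 1908 against 665 bp for rpl-16.

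Scaling decided the direction of this comparison. With library totals in place of TMM factors, 0 ribosomal protein genes rose and 23 fell, and the median over all genes moved from 0.02 to -1.32. Of all 4003 genes, 227 rose and 2082 fell with library totals. Scaled by the counts of genes opposite miRNA genes, 0 ribosomal protein genes rose and 21 fell, with a median over all genes of -1.15. Over all genes, 248 rose and 1997 fell with that scaling. All 10 genes that fell with TMM fell under both, and none of the 7 increases remained. The median of the ribosomal protein genes was -1.44 and -1.25 under these scalings, close to that of all genes in both. The values for rps-27, rpl-16 and rps-14 turned negative under both, and that for rps-10 with library totals. With DESeq2, 0 ribosomal protein genes rose and 9 fell, where 18.2% of all 8613 genes were called.

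**Figure D4:**
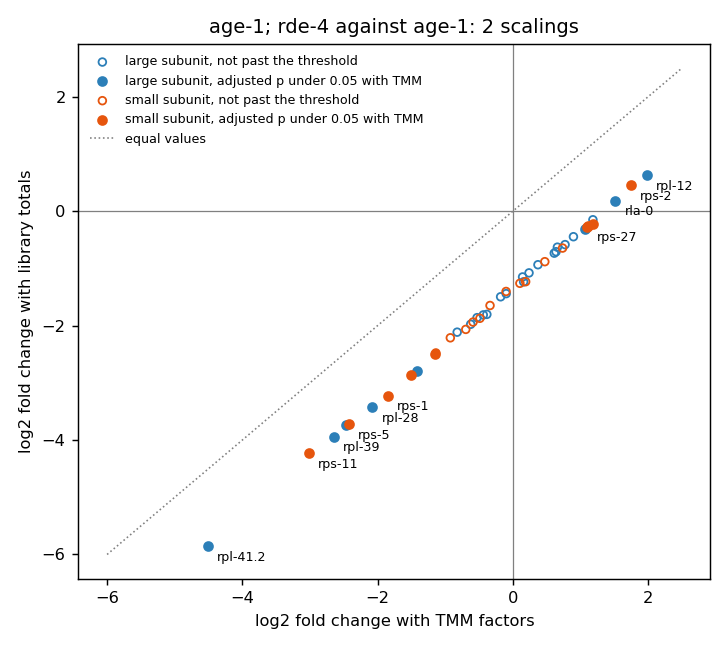
Log2 fold change of the 45 tested ribosomal protein genes between the double mutant and age-1, with TMM factors (x axis) and with library totals (y axis). The points run parallel to the line of equal values and below it, rpl-41.2 lies at -4.50 and -5.86, and the 7 filled points right of 0 lie between -0.30 and 0.63 on the y axis.

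A measure that needs no scaling is the share of each gene in the counts of the 81. By this measure rpl-41.2 held 9.30% ± 0.825 (WT), 1.06% ± 0.114 (rde-4), 14.8% ± 1.99 (age-1) and 0.737% ± 0.408 (double mutant). For rps-1 the shares were 4.73% ± 1.08, 1.01% ± 0.0149, 7.24% ± 0.608 and 2.30% ± 1.00, in the same order. Both genes thus took a smaller share in each strain with the rde-4 mutation. For rps-27 the order was reversed, with 1.67% ± 0.140 (WT), 6.54% ± 2.99 (rde-4), 1.86% ± 0.873 (age-1) and 4.70% ± 1.02 (double mutant). The share of rps-27 did not overlap between age-1 and the double mutant, while its CPM did. For rpl-28 the shares were 1.94% ± 0.389, 0.946% ± 0.635, 5.20% ± 1.14 and 1.45% ± 0.512.

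The comparison of age-1 with WT asks for the effect of lower insulin/IGF-1 signaling while RDE-4 is present. Of the 54 genes tested, rpl-28 rose and 0 fell, which is 1.85%, where 10.9% of all 5000 genes were called, 7.66% higher and 3.28% lower. At an unadjusted p under 0.05 there were 6 higher and 1 lower. The median log2 fold change was 0.07, beside -0.17 over all genes. It was -0.12 in the large subunit, with 1 of 32 genes called, and 0.35 in the small subunit, with 0 of 22 called.

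For rpl-28 the level was 4.41, 8.07 and 8.46 CPM in WT and 29.3, 16.8 and 26.6 CPM in age-1. All age-1 libraries lay above all WT libraries. The log2 fold change was 1.65 ± 0.37 with an edgeR adjusted p of 0.031, and it missed the threshold when WT replicate 1 (1.43) or either of age-1 replicates 1 (1.66) and 2 (1.90) was left out. In both rpl-41.2 and rps-1 the libraries did not overlap either. Their log2 fold changes were 0.94 ± 0.31 and 0.92 ± 0.31, with edgeR adjusted p of 0.055 and 0.057. All age-1 libraries lay above all WT libraries in 8 of the 54 ribosomal protein genes and in 25.6% of all 5000 genes. At the other end was rps-9, a small subunit gene, at -1.23 ± 0.63 (edgeR adjusted p = 0.16).

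More genes passed when replicates were paired by number. With the replicate number as a block, 6 were called, rpl-28, rpl-41.2, rps-1, rpl-18 and rpl-41.1 higher and rps-16 lower. Of all 5000 genes, 39.2% were called in that fit. DESeq2 called 4, all higher, where it called 33.6% of all 2901 genes. Without age-1 replicate 3 the count was 10, while it was 0 without WT replicate 1 and without either of age-1 replicates 1 and 2. Over all genes, 35.6% were called without age-1 replicate 3. In the fits that gave 0, the shares over all genes were 0.597%, 0.196% and 0.16%.

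The comparison of the double mutant with rde-4 asks for the effect of age-1 when RDE-4 is absent. None of the 40 ribosomal protein genes tested by edgeR was called, where 0.866% of all 3581 genes were. At an unadjusted p under 0.05 there were 3, rpl-12 higher and rps-4 and rpl-18 lower, and DESeq2 called 0. The median log2 fold change was -0.31, beside -0.04 over all genes. It was -0.35 in 22 large subunit genes and -0.14 in 18 small subunit genes. The largest value was 1.11 ± 0.47 for rpl-12 (edgeR adjusted p = 0.26) and the smallest -1.29 ± 0.51 for rps-4 (edgeR adjusted p = 0.23). For rpl-41.2 it was -0.79 ± 0.52 (edgeR adjusted p = 0.46). The gene rps-11 did not pass the filter here, with 37 counts in rde-4 and 2 in the double mutant, a ratio of 10.4 with a 95% exact counting interval of 2.67 to 88.8. With library totals 15 genes were called, all lower, and with scaling by counts opposite miRNA genes 5, all lower. Of all 3581 genes, 28.8% were called with the first scaling and 14.2% with the second.

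**Figure D5:**
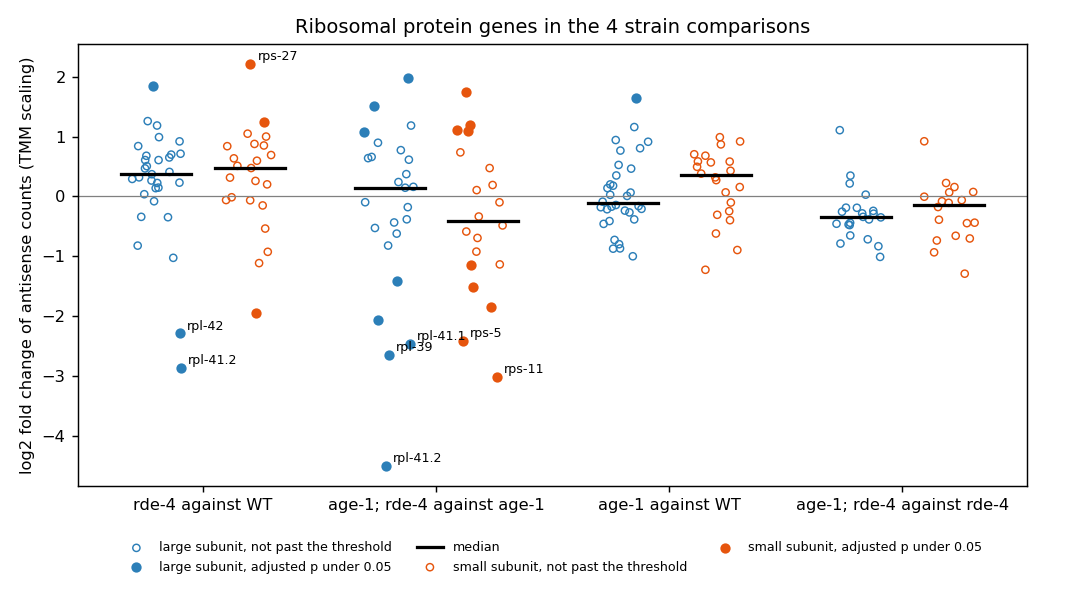
Log2 fold change of the tested large subunit (blue) and small subunit (orange) genes in the 4 comparisons, with TMM scaling. Filled points passed an adjusted p under 0.05, black lines are medians, and gene names mark filled points beyond 2.2 on the log2 scale. The number of filled points is 6, 17, 1 and 0 from left to right.

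Both comparisons of RDE-4 loss rest on separate libraries and can be set side by side. Of the 40 ribosomal protein genes tested in both, rpl-41.2 and rps-1 fell in both, rps-27 rose in both on the TMM scale, and 0 were called in opposite directions. The log2 fold change had the same sign in 29 of the 40. Across these genes, which share libraries and scaling factors within each comparison and are not independent replicates, Pearson's r was 0.77, and it was 0.68 without rpl-41.2. Over 3557 genes tested in both it was 0.89. The effect of age-1 with and without RDE-4, also from separate libraries, gave r = 0.042 across 36 ribosomal protein genes and 0.52 across 3253 genes.

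Whether RDE-4 loss acted differently in the 2 backgrounds was tested as an interaction over all 12 libraries. None of the 65 ribosomal protein genes passed in edgeR, where 0.154% of all 5843 genes did, 0.137% higher and 0.0171% lower. At an unadjusted p under 0.05 there were 1 higher and 4 lower, and DESeq2 called 0. The lowest interaction terms were -3.31 ± 1.02 for rps-11 (edgeR adjusted p = 0.33), -1.85 ± 0.61 for rpl-18 (edgeR adjusted p = 0.40) and -1.67 ± 0.63 for rpl-41.2 (edgeR adjusted p = 0.48), and the highest was 1.58 ± 0.79 for rpl-19 (edgeR adjusted p = 0.58). The larger decrease of rpl-41.2 in the age-1 background was therefore not shown to differ from that in WT. With library totals or scaling by counts opposite miRNA genes, rps-11, rpl-18 and rpl-41.2 passed. Of all 5843 genes, 1.15% and 1.25% passed under these scalings.

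Over all 5 tests, 20 of the 65 genes tested at least once were called at least once, 10 of each subunit, which is 30.8%, where 39.8% of all 5860 genes tested were. Another 21 were tested in no pairwise comparison because their counts were too low, and 31 were tested in all 4.

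Many other genes of translation did not pass the filter on low counts. The share called over all genes was 26.7% in rde-4 against WT, 49.1% in the double mutant against age-1 and 10.9% in age-1 against WT. Of the mitochondrial ribosomal protein genes, 11 of 71 were tested in rde-4 against WT, where mrpl-45 rose, at 7.65 ± 1.06 CPM in WT and 15.6 ± 2.53 in rde-4. In the double mutant against age-1, 3 were tested, where mrpl-45 rose and mrps-5 fell, by log2 fold changes of 1.10 and -1.44. Of 24 ribosome biogenesis genes, 20 were tested in rde-4 against WT and lpd-6 rose, while 0 of 8 were called in the double mutant against age-1, with a median log2 fold change of 0.76. Between age-1 and WT, biogenesis genes had a median of -1.02 over 18 tested, where nol-2 fell, beside 0.07 for the ribosomal protein genes. Of 32 aminoacyl-tRNA synthetase genes, 0 of 14 tested were called in rde-4 against WT, and yars-1 fell in age-1 against WT (-1.56) and rose in the double mutant against age-1 (2.13). A protein-coding gene lies opposite yars-1, so the source of its reads is uncertain. The synthetase gene aars-2 was called in none, with 18.4 ± 5.16 CPM in WT and 9.34 ± 3.30 in age-1.

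Of the translation factors, 1 rose and 1 fell of 21 tested in rde-4 against WT, and 0 rose and 4 fell of 18 in the double mutant against age-1. The gene eef-1A.1, for the elongation factor that brings aminoacyl-tRNA to the ribosome, was at 54.6 ± 0.419 CPM (WT), 11.3 ± 3.78 (rde-4), 169 ± 31.1 (age-1) and 18.2 ± 13.1 (double mutant). It fell with RDE-4 loss in both backgrounds, by log2 fold changes of -2.29 ± 0.39 and -3.23 ± 0.48 (edgeR adjusted p = 3.5e-04 and 2.7e-05), and rose in age-1 against WT by 1.49 ± 0.32 (edgeR adjusted p = 0.030). A near-identical copy and a protein-coding gene on the opposite strand make its reads uncertain. The initiation factor gene eif-1 was at 3.69 ± 1.76 CPM in age-1 and had no count in any double mutant library. It too has a protein-coding gene on the opposite strand, so the source of its reads is uncertain. Of the 3 ribosomal proteins under other names, ubq-2, a fusion of ubiquitin and a large subunit protein, fell in the double mutant against age-1 (log2 fold change -1.84 ± 0.50, edgeR adjusted p = 0.0053), while rack-1 and ubl-1 passed in no comparison.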

How the data were processed

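Small RNA reads of 12 libraries, 3 independent worm populations of each of 4 strains, were mapped by the authors to WBcel235 with Bowtie through QuasR, allowing several hits per read. They counted reads on the strand opposite each gene of a RefSeq annotation without piRNAs and deposited raw counts per gene in 3 tables, each for a pair of strains. The authors' versions of these tools: not given in the sources used here. Across tables, the 6 library columns that appear in more than 1 table held identical values.

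Counts were tested in R 4.3.3 with edgeR 4.0.16: default filterByExpr (minimum count 10), TMM factors, the quasi-likelihood F test (two-sided) on the 6 libraries of each pair, or on all 12 for the interaction, and Benjamini-Hochberg adjustment over all tested genes, with a threshold of 0.05. Standard errors are on the log2 scale. Fold changes come from these pairwise fits, while CPM use TMM factors over all 12 libraries. The script was tested on simulated data. Alternatives were RLE factors, library totals, scaling by counts opposite miRNA genes, other filters, genes without an opposite gene, 1 fit of all libraries, a replicate block, DESeq2 1.42.0, unadjusted p and leaving out each library. Same-numbered libraries deviated together in rde-4 against WT (r = 0.322, 0.19 and 0.394) and in age-1 against WT (r = 0.328, 0.22 and 0.388). No label ties these numbers to a batch. The reported tests were unpaired, and pairing by number was used only in the alternative with a replicate block.

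Places and strands are from Ensembl (WBcel235), which placed 31443 of the 32238 genes, and alternative symbols from RefSeq. No sequence is printed. Named genes were those called in any test (at most 6 per subunit where over 12 were called), the 4 highest and 2 lowest per kb of each subunit, the rla genes, numbered copies, and for each comparison list the 2 genes with the smallest adjusted p. Members and lists were chosen with earlier results of these data known. The summed rpl-41 copies, the shares within the 81 genes and the values without rpl-41.2, rps-1 or rps-27 were chosen after the data were seen.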

Additional observations from a re-analysis of the deposited data

How the results depend on the processing

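In rde-4 against WT, 16 ribosomal protein genes passed an unadjusted p, 11 passed among genes with no opposite gene and 11 with the replicate block, in place of 6, and the median log2 fold change was 0.054 with library totals and 0.68 among genes with no opposite gene, in place of 0.39. In the double mutant against age-1 the count of 17 became 11 without a filter (0 higher) and 9 with DESeq2 (0 higher), and the median of -0.10 became -1.44 with library totals, -1.25 when scaled by counts opposite miRNA genes, -0.45 without a filter, 0.36 among genes with no opposite gene and 0.15 with all libraries in 1 fit. With library totals rps-27, rpl-16, rps-14 and rps-10 were at -0.26, -0.30, -0.27 and -0.22, and when scaled by counts opposite miRNA genes rps-27, rpl-16 and rps-14 were at -0.055, -0.11 and -0.088. In age-1 against WT, 7 passed an unadjusted p, 4 without a filter, 2 among genes with no opposite gene, 6 with the replicate block and 4 with DESeq2, in place of 1, and the median of 0.07 became 0.26 when scaled by counts opposite miRNA genes and 0.59 with DESeq2. In the double mutant against rde-4, where 0 passed, 3 passed an unadjusted p, 15 with library totals, 5 when scaled by counts opposite miRNA genes and 1 without a filter, and the median of -0.31 became -1.17 and -1.01 under these scalings. For the interaction, 5 passed an unadjusted p, 3 with library totals and 3 when scaled by counts opposite miRNA genes. With genes without an opposite gene as the denominator, the ratio of shares was 1.63 for rde-4 to WT, 1.24 for the double mutant to age-1 and 0.738 for the double mutant to rde-4, in place of 0.925, 0.334 and 0.457. The share of all genes called also moved between settings, for example from 10.9% to 39.2% with the replicate block in age-1 against WT. The cause was not tested for any of these.

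Leaving out 1 library at a time gave 5 to 10 genes called in rde-4 against WT, 8 to 18 in the double mutant against age-1, 0 to 10 in age-1 against WT, and 0 in each fit for the double mutant against rde-4 and the interaction. Medians ranged from 0.32 to 0.55, from -0.29 to -0.0017, from -0.12 to 0.23 and from -0.45 to -0.20 in the 4 comparisons in that order. Ratios of shares ranged from 0.768 to 1.04 for rde-4 to WT, 0.299 to 0.37 for the double mutant to age-1, 1.05 to 1.42 for age-1 to WT and 0.423 to 0.478 for the double mutant to rde-4. Same-numbered libraries did not all deviate together in the double mutant against age-1 (r = 0.172, -0.164 and 0.155). In the double mutant against rde-4 they did so weakly (r = 0.302, 0.0954 and 0.138), where differently numbered libraries reached at most 0.0735. The block gave 17 and 0 genes in these comparisons and 0 for the interaction. Median counts of 5.67 to 15 per gene and library limit all single genes.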
